A study of Homo sapiens with 6 samples.

Results

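The genes described here encode 10 secreted cytokines: the colony-stimulating factors CSF1, CSF2 and CSF3, the interleukin-6 relatives IL6, IL11 and LIF, the interleukin-1 cytokines IL1A and IL1B, and TNF and TSLP. They were chosen by name, with earlier results of these data known, and each matched 1 symbol among the 19437 genes of the expression table. The RNA came from SCC9, a human oral squamous carcinoma line, in 6 libraries of poly(A) RNA. In the TEADi group (3 libraries, A, B and C) the cells were transduced with an adenovirus expressing TEADi, which the series title describes as TEAD inhibition. TEAD proteins are the DNA-binding transcription factors through which the Hippo pathway coactivators YAP and TAZ act on genes. In the GFP group (3 libraries, A, B and C) they received an adenovirus expressing green fluorescent protein. Both groups were therefore transduced cells, at a multiplicity of infection of 25, grown with hydrocortisone and harvested 48 hours later. Values of single libraries are given in the order A, B, C. Hydrocortisone, which both groups received, is a glucocorticoid, a class of hormone known to lower the transcripts of many cytokines. The labels do not say whether the libraries of a group came from separate cultures. The p-values below thus set each difference against the spread between libraries, which may be technical.

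As background, colony-stimulating factors drive the growth of myeloid blood cells, and CSF3 is the neutrophil factor G-CSF. IL6, IL11 and LIF signal through the shared receptor chain gp130 (IL6ST) to JAK kinases and STAT3. IL1A and IL1B bind the receptor IL1R1 and signal through MYD88 and IRAK kinases to NF-kB, as TNF does through other adaptors. Squamous tumour cells are known to secrete several of these factors, and their transcripts are short-lived because AU-rich elements in their 3′ untranslated regions (UTRs) recruit decay proteins.

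In TEADi cells CSF3 transcripts stood 26.3-fold above GFP cells, IL1B 3.80-fold, IL1A 2.69-fold, IL11 2.16-fold and LIF 1.36-fold. IL6 was 1.76-fold lower in TEADi cells and CSF1 1.26-fold lower. CSF2 and TSLP were near 1 to 2 CPM (read counts scaled to library size by the authors) in both groups and did not pass the test. TNF stayed under 1 CPM in all 6 libraries and was not tested. Of the 9 tested cytokine genes, 5 were called higher and 2 lower, that is 7 called, where 60.8% of all 13640 tested genes were called, 25.5% higher and 35.3% lower. A call means a Benjamini-Hochberg adjusted p under 0.05 in limma on log2(CPM + 1), over genes that reached 1 CPM in 3 or more libraries. All 9 tested cytokine genes had at least 1 CPM in all 6 libraries, so none entered through 1 group alone. The groups did not overlap for 7 of the 9, as for 65.8% of all tested genes. The median log2 difference (TEADi minus GFP) was 0.44 over the 9, beside -0.07 over all tested genes, and 4 cytokine genes reached a log2 difference of 1, as did 691 of all tested genes (5.07%). With median-ratio factors in place of TMM, 4330 of all genes were higher and 3962 lower, against 3482 higher and 4817 lower as reported, and the same 5 cytokine genes were higher and the same 2 lower.

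**Figure D1:**
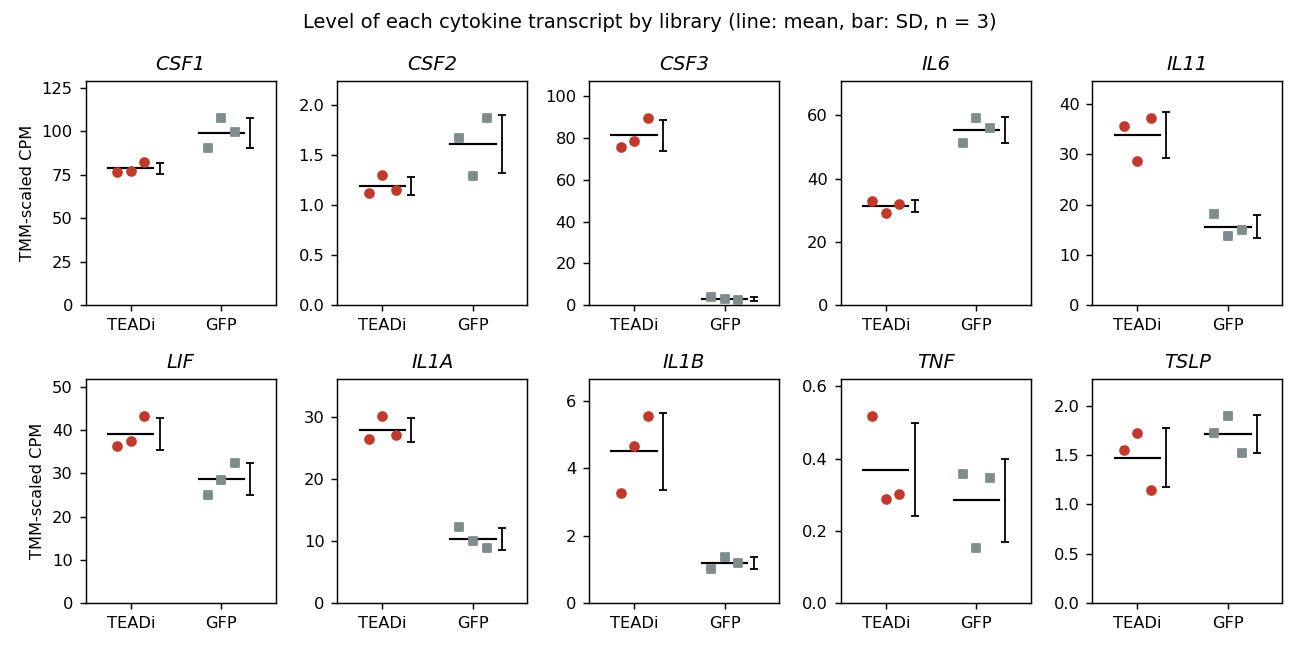
Level of each of the 10 cytokine genes in each library, in TMM-scaled CPM on a linear axis from 0, 1 panel a gene, with TEADi left of GFP. Points are single libraries A, B and C from left to right, lines are means and bars span 1 SD either way (n = 3). CSF3 lies between 75.6 and 89.4 CPM in TEADi libraries and between 2.28 and 4.11 CPM in GFP libraries, while CSF2, TSLP and TNF overlap.

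Among markers of squamous and other epithelial cells, KRT5, KRT14 and CDH1 were under 1 CPM in 4 of the 6 libraries, and TP63 in all 6. These low values go against the squamous part of the cell line's description. KRT5, the keratin of basal squamous cells, had 0.172, 0.216 and 0.302 CPM in TEADi libraries, against 21.7, 17.2 and 0.414 CPM in GFP libraries. GFP library C thus stood with the TEADi libraries in KRT5, and it did so in KRT14, TP63 and CDH1 as well. The level of TP63 was low throughout, at 0.893, 0.910 and 0.138 CPM in GFP libraries. Of 13 epithelial markers 5 were tested, 4 of them lower and none higher, and their summed level was 184 to 196 CPM in TEADi and 322 to 412 CPM in GFP libraries, mostly KRT8, KRT18 and SFN, and their part in the results was not tested. Against GFP library C alone 3 were lower, since EPCAM lost its call at a log2 difference of -0.24, against -0.53 with all libraries. Its call was also lost without TEADi library A, at -0.44, and without GFP library B, at -0.45. Without GFP libraries A and B, 5 cytokine genes were again called higher and 2 lower, and the called value that moved by more than 1.5 times is given at LIF.

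All of these genes but TSLP carried AU-rich elements. Taking 1 protein-coding GENCODE 29 transcript per gene and the strand of the transcript only, the heptamer TATTTAT was present in the 3′ UTR of 9 of the 10 genes, against 27.9% of 19547 genes, and 8 of the 10 held it at least 3 times, against 5.11%. The shorter pentamer ATTTA, which lies within the heptamer, had a median density of 6.88 per kb in the 10 and 1.41 per kb over all genes with a 3′ UTR. CSF1 and LIF were not unusual in this density. CSF1 had 1.86 per kb, which 41.5% of genes reached, and LIF 2.18 per kb, which 36.5% reached. CSF1 also held the heptamer only 1 time, as 27.9% of genes did at least. The TSLP transcript used had a 3′ UTR of only 57 bases. The 30-base stretch richest in the pentamer is shown for 5 genes that differed in what they did in TEADi cells, with each ATTTA in capitals. The stretches lie in 3′ UTR exons at chr17:40016975-40017004 for CSF3 and chr2:112830003-112830032 (minus strand) for IL1B. The others are chr19:55365951-55365980 (minus strand) for IL11, chr7:22731697-22731726 for IL6 and chr5:132076072-132076101 for CSF2, all on GRCh38.
CSF3: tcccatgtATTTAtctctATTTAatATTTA
IL1B: tgagcaaccgcttccctATTTATTTATTTA
IL11: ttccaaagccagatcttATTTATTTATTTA
IL6: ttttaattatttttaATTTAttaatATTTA
CSF2: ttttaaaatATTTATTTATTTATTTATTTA
CSF3 and IL6, which moved in opposite directions, each had 3 heptamers in the 3′ UTR, and CSF2, which was not called, and IL11, which rose, each had 7. The part of these elements in the changes was not tested.

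CSF3 lies on chromosome 17 (chr17:38171614-38174066 on hg19, plus strand). It had 75.6, 78.7 and 89.4 CPM in TEADi libraries, against 4.11, 2.88 and 2.28 CPM in GFP libraries. Every TEADi library was more than 10 times above every GFP library. The means were 81.3 ± 7.25 CPM in TEADi and 3.09 ± 0.933 CPM in GFP libraries (SD, n = 3 each, as for all means below). The fitted log2 difference was 4.35 ± 0.13 (SE), with a 95% interval of 4.07 to 4.63 (limma, Benjamini-Hochberg adjusted p = 3.8e-14). Among the 13640 tested genes 6 had a larger one. The summed level of the 10 cytokine genes was 300 ± 17.0 CPM in TEADi and 217 ± 10.3 CPM in GFP libraries (SD, n = 3 each). Without CSF3 the sums were 219 ± 10.1 CPM in TEADi and 214 ± 11.0 CPM in GFP libraries. CSF3 made up 26.0 to 28.0% of the sum in TEADi libraries and 1.04 to 1.99% in GFP libraries.

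CSF1, the factor that macrophages need to grow and survive (chr1:110452864-110473614 on hg19, plus strand), moved the other way. It had 76.8, 77.1 and 82.2 CPM in TEADi libraries, against 90.5, 108 and 99.5 CPM in GFP libraries. The groups did not overlap, though the gap was narrow. The log2 difference was -0.33 ± 0.07 (limma, Benjamini-Hochberg adjusted p = 9.9e-04). CSF2, the granulocyte-macrophage factor GM-CSF (chr5:131409483-131411859 on hg19, plus strand), had 1.12, 1.29 and 1.15 CPM in TEADi libraries, against 1.67, 1.29 and 1.86 CPM in GFP libraries. The B libraries of both groups were level, so the groups overlapped. Its log2 difference was -0.25 with a 95% interval of -0.59 to 0.09 (limma, Benjamini-Hochberg adjusted p = 0.196). It was called lower with quantile normalization, at -0.39 (limma, Benjamini-Hochberg adjusted p = 0.0437). These CSF2 values are only 13 to 28 times the smallest value of their library, so little depth stands behind them. The 3 colony-stimulating factors thus comprised 1 higher gene, 1 lower gene and 1 not called.

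IL6, the family's best-known member, which induces acute-phase proteins (chr7:22765503-22771621 on hg19, plus strand), had 32.9, 29.2 and 32.1 CPM in TEADi libraries, against 51.1, 59.0 and 55.9 CPM in GFP libraries. Every TEADi library was below every GFP library. The means were 31.4 ± 1.96 CPM in TEADi and 55.3 ± 3.95 CPM in GFP libraries (SD, n = 3 each), and the log2 difference was -0.80 ± 0.08 (limma, Benjamini-Hochberg adjusted p = 2.5e-07). The noncoding gene AC073072.5 overlaps IL6 on the opposite strand. It had 0.776, 0.791 and 0.905 CPM in TEADi libraries, against 3.99, 2.27 and 3.31 CPM in GFP libraries, and was called lower too. The use of strand in counting is not given in the sources used here, so reads of the 2 genes cannot be told apart.

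IL11, an IL-6 relative known for its part in fibrosis and tumours (chr19:55875757-55881831 on hg19, minus strand), had 35.6, 28.7 and 37.2 CPM in TEADi libraries, against 18.2, 13.8 and 15.0 CPM in GFP libraries. The groups did not overlap. The log2 difference was 1.07 ± 0.11 (limma, Benjamini-Hochberg adjusted p = 4.6e-07). LIF, named for inhibiting leukaemia cells (chr22:30636436-30642840 on hg19, minus strand), had 36.5, 37.6 and 43.3 CPM in TEADi libraries, against 25.1, 28.6 and 32.5 CPM in GFP libraries. The groups did not overlap, and GFP library C was closest to the TEADi libraries. Its log2 difference was 0.44 ± 0.10 (limma, Benjamini-Hochberg adjusted p = 9.6e-04). Against GFP library C alone, whose spread is then assumed to be like that of the TEADi libraries, it was 0.26 (limma, Benjamini-Hochberg adjusted p = 0.048). The clone-named gene RP1-102K2.8, which overlaps LIF on the other strand, was at the smallest value in all 6 libraries. Among the gp130 cytokines, IL6 was therefore lower while IL11 and LIF were higher.

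IL1A and IL1B are neighbours 45160 bases apart on chromosome 2, and both rose. IL1A, an alarmin of epithelial cells (chr2:113531492-113542167 on hg19, minus strand), had 26.6, 30.2 and 27.1 CPM in TEADi libraries, against 12.3, 9.93 and 8.90 CPM in GFP libraries. All TEADi libraries were more than 2 times above all GFP libraries. The log2 difference was 1.36 ± 0.11 (limma, Benjamini-Hochberg adjusted p = 2.4e-08). IL1B, whose precursor is cleaved to its active form by caspase-1 (chr2:113587328-113594480 on hg19, minus strand), had 3.28, 4.68 and 5.55 CPM in TEADi libraries, against 1.01, 1.36 and 1.17 CPM in GFP libraries. The groups did not overlap, at a level far below IL1A. The IL1B values in GFP libraries are only 17, 18 and 17 times the smallest value of their library, so little depth stands behind that side. The log2 difference was 1.31 ± 0.17 (limma, Benjamini-Hochberg adjusted p = 4.4e-06), close to that of IL1A although the ratio of means was larger, since adding 1 CPM shrinks the change of a low gene. With 0.1 or 5 CPM added it was 1.82 or 0.61. CKAP2L, the other gene within 100 kb of both, was lower, with 70.0, 72.6 and 74.1 CPM in TEADi libraries and 114, 103 and 110 CPM in GFP libraries.

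TSLP, an epithelial cytokine of allergic inflammation (chr5:110405760-110413722 on hg19, plus strand), had 1.55, 1.73 and 1.15 CPM in TEADi libraries, against 1.73, 1.90 and 1.52 CPM in GFP libraries. The groups overlapped, and the log2 difference was -0.14 with a 95% interval of -0.48 to 0.20 (limma, Benjamini-Hochberg adjusted p = 0.479). TNF (chr6:31543344-31546113 on hg19, plus strand) had 0.518, 0.288 and 0.302 CPM in TEADi libraries, against 0.357, 0.152 and 0.345 CPM in GFP libraries. These are 2 to 6 times the smallest value of their library, so a difference was not detectable at this depth. Fitted without a filter, its log2 difference was 0.09 with a 95% interval of -0.13 to 0.32 (limma, Benjamini-Hochberg adjusted p = 0.498), a scale on which the added 1 CPM outweighs the values. In the authors' deposited table of statistics the 7 called genes had an FDR step up under 0.05, and CSF2, TNF and TSLP did not.

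**Figure D2:**
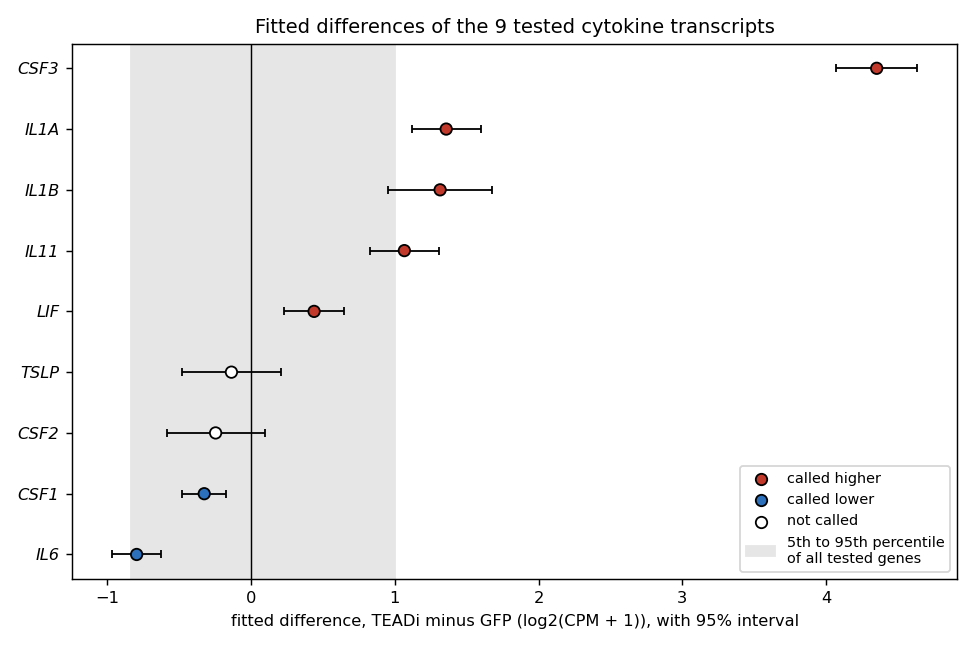
Fitted difference of each tested cytokine gene, TEADi minus GFP, on the log2(CPM + 1) scale, with its 95% interval. The grey band spans the 5th to the 95th percentile of all 13640 tested genes, from -0.84 to 1.0. CSF3 at 4.35, IL1A at 1.36, IL1B at 1.31 and IL11 at 1.07 lie above the band, and IL6 at -0.80 lies just inside its lower edge.

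Levels per kilobase of merged exons (GENCODE 29) can be set roughly side by side between genes. On this scale the order of the 10 changed between the groups. The lengths join the exons of all transcripts of a gene, and the annotation used in counting is not given, so the order is approximate. In TEADi libraries CSF3 stood highest with 36.6 ± 3.27 CPM per kb, above every library value of the other 9. Next came IL6, CSF1, IL1A, IL11 and LIF with means of 15.2, 14.5, 13.2, 12.7 and 9.86 CPM per kb, where each neighbour in the order overlapped the next. CSF2 and IL1B, at 1.51 and 1.45 CPM per kb, overlapped each other and were followed by TSLP and TNF at 0.344 and 0.220 CPM per kb, which overlapped as well. In GFP libraries IL6 stood highest with 26.7 ± 1.91 CPM per kb, above CSF1 with 18.3 ± 1.57 CPM per kb. LIF, IL11 and IL1A followed at 7.23, 5.86 and 4.89 CPM per kb, each overlapping its neighbour. CSF2 and CSF3, at 2.04 and 1.39 CPM per kb, overlapped, as did TSLP and IL1B at 0.400 and 0.382 CPM per kb, and TNF was lowest at 0.170 CPM per kb.

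Promoter windows of 250 bases before to 50 after a start site were in the RefSeq table (GRCh38.p14) for 7 of the 10 genes, some with several starts. CSF1, CSF3 and LIF had no window there, so their promoters were not searched. They were searched on both strands for the TEAD motif GGAATG and the AP-1 motif TGANTCA, for the C/EBP motif TTGCNNAA and the CRE motif TGACGTCA, and for the NF-kB consensus by name. No window of these 7 genes held the TEAD letters, which 14.0% of 35116 windows of the same length held. The AP-1 letters were in 7.71% of windows, those of C/EBP in 10.5%, those of CRE in 1.85% and the NF-kB consensus in 11.3%. Windows of 3 genes are printed, with matches in capitals, because their genes moved in different directions. IL1A (chr2:112784444-112784743, minus strand) and IL11 (chr19:55370414-55370713, minus strand) rose and have AP-1 matches. IL6 (chr7:22726950-22727249, plus strand) fell and has a C/EBP and an NF-kB match. Of the other genes searched, IL1B, which rose, had a C/EBP match and no AP-1 match, and TSLP, which was not called, had 2 NF-kB matches. CSF2, not called, and TNF, not tested, had no match. The part of the matches in the changes was not tested.
IL1A: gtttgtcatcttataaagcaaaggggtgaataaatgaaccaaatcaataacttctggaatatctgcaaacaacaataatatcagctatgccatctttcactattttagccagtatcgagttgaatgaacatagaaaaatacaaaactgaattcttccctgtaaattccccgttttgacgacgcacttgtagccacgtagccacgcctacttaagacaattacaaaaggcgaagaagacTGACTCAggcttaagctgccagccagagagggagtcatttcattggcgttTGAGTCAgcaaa
IL11: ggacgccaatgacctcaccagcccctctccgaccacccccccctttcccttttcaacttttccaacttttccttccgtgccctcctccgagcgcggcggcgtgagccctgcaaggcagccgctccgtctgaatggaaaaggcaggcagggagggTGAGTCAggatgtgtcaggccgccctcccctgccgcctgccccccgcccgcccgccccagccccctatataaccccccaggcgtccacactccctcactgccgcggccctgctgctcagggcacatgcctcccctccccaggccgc
IL6: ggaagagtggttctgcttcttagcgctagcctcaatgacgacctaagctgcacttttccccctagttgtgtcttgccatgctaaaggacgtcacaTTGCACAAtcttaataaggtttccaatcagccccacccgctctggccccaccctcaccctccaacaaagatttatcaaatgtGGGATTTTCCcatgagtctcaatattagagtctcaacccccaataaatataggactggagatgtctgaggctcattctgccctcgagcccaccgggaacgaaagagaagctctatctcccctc
The first AP-1 match of IL1A begins 12 bases before the start site and the second 38 bases after it, and that of IL11 begins 96 bases before. In IL6 the C/EBP match begins 155 and the NF-kB match 73 bases before the start site. No matches overlapped one another, and a match is a description of letters, not of binding.

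Genes around the cytokine loci changed in both directions. Within 100 kb of the 10 lay 34 other genes of the table, of which 24 were tested, 4 called higher, 13 lower and 7 not called, where 25.5% of all tested genes were higher and 35.3% lower. Of these calls ATP6V1G2, higher, passed the filter only through the TEADi libraries, and AC073072.5, lower, only through the GFP libraries. MED24, 1283 bases from CSF3, had 73.7, 80.7 and 82.6 CPM in TEADi libraries and 82.1, 83.5 and 89.6 CPM in GFP libraries, and was not called. PSMD3 and GSDMB, near CSF3 too, were not called either, NR1D1 and THRA were higher and ORMDL3 was lower. Near IL11, UBE2S, HSPBP1, ISOC2 and RPL28 were called lower while IL11 rose.

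By Euclidean distance over the 6 libraries of log2(CPM + 1) minus the GFP mean, the genes most like CSF3, among tested genes, were LAPTM5 at 0.291, ITGA2 at 0.546 and CDCP1 at 0.568. LAPTM5, a lysosomal membrane protein known from blood cells, had 73.6, 75.1 and 77.2 CPM in TEADi libraries, against 3.51, 2.58 and 2.62 CPM in GFP libraries. ITGA2, a collagen-binding integrin chain, averaged 163 ± 13.7 CPM in TEADi and 6.11 ± 0.344 CPM in GFP libraries (SD, n = 3 each). The genes most like IL6 were SLC5A6 at 0.117, TMEM14B at 0.145 and PGBD3 at 0.146. SLC5A6, a vitamin transporter, had 42.3, 39.2 and 41.1 CPM in TEADi libraries, against 70.4, 76.7 and 75.6 CPM in GFP libraries.

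Other genes of the same pathways were taken from 7 lists of 130 genes, of which 98 were tested: 53 were higher, 20 lower and 25 not called. So 74.5% were called, beside 60.8% of all tested genes, of which 25.5% were higher and 35.3% lower. The lists were chosen with earlier results of these data known, so this share cannot be read as independent of that choice. The higher ones include 5 genes under 1 CPM in every GFP library, which passed the filter only through the TEADi libraries: CSF1R, IL1RL1, IL1RN, IL1R2 and NLRP3. TNFRSF1B, also higher, was under 1 CPM in GFP library A and needed the TEADi libraries to pass as well. Of 5 tested ligands of the same families none was higher and 2 were lower, with a median log2 difference of -0.15. KITLG, the stem cell factor, had 10.7, 8.20 and 9.83 CPM in TEADi libraries, against 41.4, 39.1 and 41.2 CPM in GFP libraries, a log2 difference of -1.98 ± 0.10 (limma, Benjamini-Hochberg adjusted p = 4.6e-11). IL18, an IL-1 relative also cleaved by caspase-1, averaged 6.20 ± 0.222 CPM in TEADi and 17.8 ± 1.71 CPM in GFP libraries (SD, n = 3 each), a log2 difference of -1.38 ± 0.11 (limma, Benjamini-Hochberg adjusted p = 1.7e-08). Both TEADi ranges lay wholly below the GFP ranges, opposite to CSF3 and IL1B.

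Of 13 tested receptors 9 were higher, 2 lower and 2 not called, with a median log2 difference of 0.93. CSF1R and IL1RL1 passed the filter only through the TEADi libraries, and TNFRSF1B was under 1 CPM in GFP library A. The count and the median thus follow in part from the filter. Among the 10 receptors with at least 1 CPM in all 6 libraries 6 were higher and 2 lower, with a median of 0.49, and with 5 CPM added in place of 1 the median of the 13 was 0.56. Chains that bind IL-6 family cytokines differed among themselves. IL6ST, the shared gp130 chain, had 511, 593 and 533 CPM in TEADi libraries, against 368, 347 and 390 CPM in GFP libraries, and rose by a log2 difference of 0.57 ± 0.07 (limma, Benjamini-Hochberg adjusted p = 5.4e-06). The chain that binds IL-6 itself, IL6R, had 8.19, 10.6 and 10.3 CPM in TEADi libraries, against 3.63, 3.34 and 3.10 CPM in GFP libraries. It rose by 1.29 ± 0.13 on the log2 scale (limma, Benjamini-Hochberg adjusted p = 3.4e-07), the reverse of its ligand. IL11RA had 11.8, 11.9 and 12.0 CPM in TEADi libraries, against 17.9, 19.3 and 17.3 CPM in GFP libraries, and fell by 0.57 on the log2 scale (limma, Benjamini-Hochberg adjusted p = 8.7e-05), again the reverse of its ligand. LIFR averaged 47.0 ± 3.93 CPM in TEADi and 42.9 ± 5.08 CPM in GFP libraries and was not called, and its groups overlapped. It was called higher with median-ratio factors and without GFP library C, at 0.23 on the log2 scale in both, and was at -0.05 and not called against GFP library C alone. OSMR, the oncostatin M receptor, averaged 211 ± 15.1 CPM in TEADi and 95.4 ± 15.1 CPM in GFP libraries and rose.

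The signalling IL-1 receptor IL1R1 rose with its ligands. It had 181, 199 and 201 CPM in TEADi libraries, against 108, 95.3 and 101 CPM in GFP libraries, a log2 difference of 0.93 ± 0.07 (limma, Benjamini-Hochberg adjusted p = 6.4e-09). Its accessory chain IL1RAP had 57.1, 57.5 and 59.4 CPM in TEADi libraries, against 38.3, 41.8 and 50.1 CPM in GFP libraries. It was called higher at 0.42 ± 0.09 on the log2 scale (limma, Benjamini-Hochberg adjusted p = 5.4e-04), but not against GFP library C alone, at 0.21 (limma, Benjamini-Hochberg adjusted p = 0.0646). IL18R1 averaged 15.1 ± 0.745 CPM in TEADi and 1.81 ± 0.389 CPM in GFP libraries (SD, n = 3 each), while its ligand IL18 was lower. The TNF receptor TNFRSF1A averaged 70.9 ± 5.54 CPM in TEADi and 67.8 ± 1.01 CPM in GFP libraries and was not called. It was called higher under 2 other scalings, at a log2 difference of 0.16 when libraries were scaled by median-ratio factors and of 0.15 under quantile normalization. CSF1R, the receptor of CSF1, had 4.40, 4.46 and 4.83 CPM in TEADi libraries, against 0.179, 0.303 and 0.345 CPM in GFP libraries. CSF2RA, CSF2RB, CSF3R and CRLF2, of the receptors of CSF2, CSF3 and TSLP, were sought but had no entry in the expression table. JAK1, a listed signal transducer, had no entry either, and a missing entry cannot be read as absent expression. IL7R averaged 70.1 ± 2.54 CPM in TEADi and 98.4 ± 1.30 CPM in GFP libraries. It was the other lower receptor beside IL11RA, at a log2 difference of -0.48, and is named after its values were seen.

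**Figure D3:**
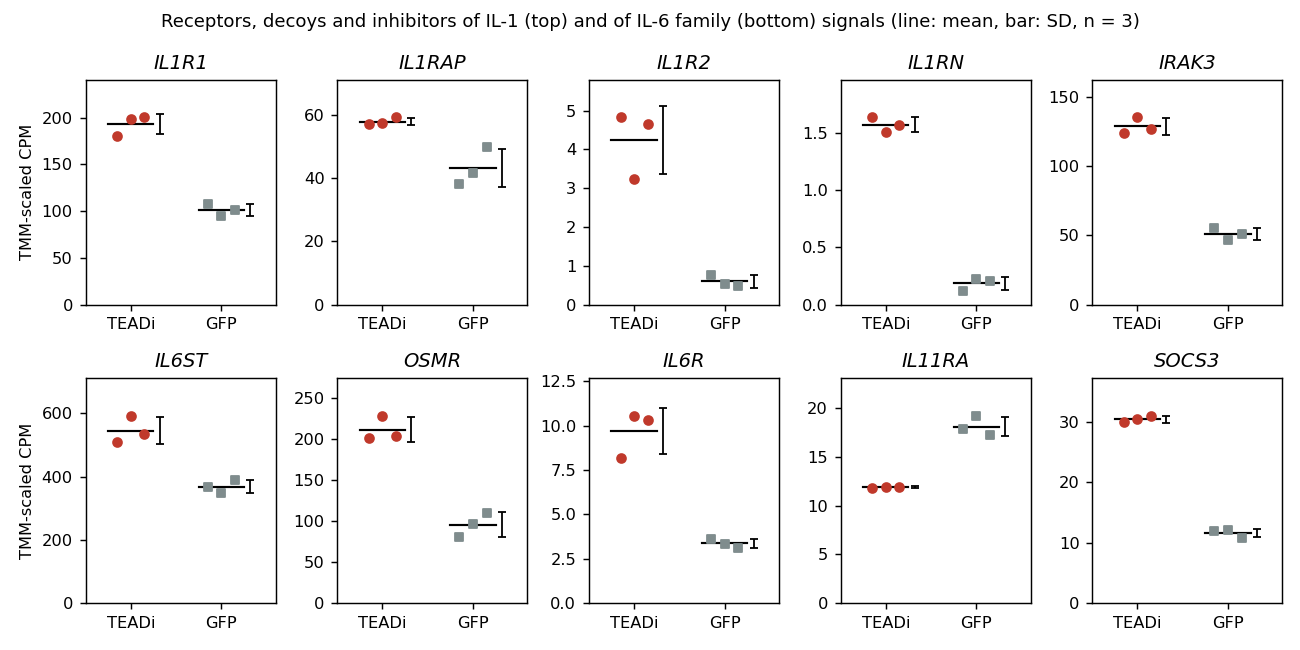
Levels of 10 receptor, decoy and inhibitor genes of IL-1 signals (top) and IL-6 family signals (bottom) in each library, in TMM-scaled CPM on a linear axis from 0, with TEADi left of GFP. Points are single libraries, lines are means and bars span 1 SD either way (n = 3). IL11RA lies lower in TEADi libraries, near 11.9 CPM against 18.1 CPM in GFP libraries, and the other 9 lie higher.

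Among antagonists and feedback inhibitors 7 of 10 tested genes were higher, 1 lower and 2 not called (median log2 difference 0.74). IL1RN, which encodes the IL-1 receptor antagonist, had 1.64, 1.51 and 1.57 CPM in TEADi libraries, against 0.119, 0.227 and 0.207 CPM in GFP libraries. IL1R2, the decoy receptor of IL-1, had 4.83, 3.24 and 4.64 CPM in TEADi libraries, against 0.774, 0.531 and 0.483 CPM in GFP libraries. Both passed the filter only through the TEADi libraries, and of the 8 genes with at least 1 CPM in all 6 libraries 5 were higher and 1 lower, with a median of 0.60. SOCS3, the feedback inhibitor of gp130 signalling, had 29.9, 30.4 and 31.1 CPM in TEADi libraries, against 11.8, 12.1 and 10.8 CPM in GFP libraries, a log2 difference of 1.32 ± 0.09 (limma, Benjamini-Hochberg adjusted p = 2.2e-09). IRAK3, which dampens IL-1 receptor signals, averaged 129 ± 5.95 CPM in TEADi and 51.0 ± 4.13 CPM in GFP libraries (SD, n = 3 each). PTPN2, a phosphatase of JAK and STAT proteins, was lower, at 29.9 ± 1.56 CPM in TEADi and 53.6 ± 3.52 CPM in GFP libraries.

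Genes of cytokine maturation and release were mostly higher: 11 of 16 tested, with 1 lower and 4 not called (median log2 difference 0.45). Of these NLRP3 passed the filter only through the TEADi libraries. The lower gene was CAPN2, a calpain, named after its values were seen, and its call was lost under 8 alternatives, among them the 3 other scalings and the replicate block. CASP4, an inflammatory caspase, averaged 76.8 ± 3.01 CPM in TEADi and 34.3 ± 1.25 CPM in GFP libraries, and AIM2, a DNA sensor that activates caspase-1, 24.3 ± 0.818 CPM in TEADi and 8.10 ± 1.19 CPM in GFP libraries (SD, n = 3 each). RHBDF1, which helps the TNF-releasing protease ADAM17 to mature, averaged 26.2 ± 1.98 CPM in TEADi and 9.03 ± 1.56 CPM in GFP libraries. CAPN1, another calpain, of the protease class known to cleave IL1A, passed the test as well, at 175 ± 6.14 CPM in TEADi and 95.8 ± 13.3 CPM in GFP libraries.

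The 21 tested signal transducers were split, with 6 higher, 7 lower and 8 not called (median log2 difference -0.07, that of all genes). Over the alternatives tried 3 to 7 of them were higher and 6 to 9 lower. STAT3 averaged 245 ± 8.84 CPM in TEADi and 174 ± 4.90 CPM in GFP libraries (SD, n = 3 each) and was called higher. IRAK4, the kinase nearest to the IL-1 receptor, had 7.16, 7.98 and 8.93 CPM in TEADi libraries, against 26.6, 25.3 and 24.9 CPM in GFP libraries. It was lower by a log2 difference of -1.56 ± 0.10 (limma, Benjamini-Hochberg adjusted p = 1.5e-09), opposite to IL1A, IL1B and IL1R1. BIRC2, a ubiquitin ligase of TNF receptor signalling, was lower too.

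Of 17 tested genes that act on the decay of cytokine transcripts 7 were higher, 5 lower and 5 not called (median log2 difference 0.05). ZFP36, the protein tristetraprolin that binds AU-rich elements such as those printed above, had 17.2, 20.8 and 23.0 CPM in TEADi libraries, against 5.12, 5.99 and 6.48 CPM in GFP libraries. It rose by 1.63 ± 0.12 on the log2 scale (limma, Benjamini-Hochberg adjusted p = 8.2e-09). ZC3H12A, the nuclease Regnase-1, known to cleave IL6 transcripts, averaged 114 ± 5.81 CPM in TEADi and 52.8 ± 7.30 CPM in GFP libraries, and its relative ZC3H12C and the ZFP36 relative ZFP36L2 rose as well. The 5 lower genes, named after their values were seen, were CNOT7, HNRNPD, ELAVL1, KHSRP and DCP2, with log2 differences of -0.75, -0.66, -0.61, -0.53 and -0.29.

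Of 16 tested genes known to respond to IL-6, IL-1 or TNF 13 were higher, 2 lower and 1 not called (median log2 difference 0.78). Over the alternatives tried 11 to 14 of them were higher and 2 lower. The calls of BCL3 and TNFAIP2, whose groups overlapped, were lost under some alternatives. The acute-phase gene SAA1 had 583, 575 and 589 CPM in TEADi libraries, against 99.6, 84.2 and 77.9 CPM in GFP libraries. SAA2, a near-identical copy whose reads the counting may have split with SAA1, averaged 226 ± 2.11 CPM in TEADi and 22.6 ± 2.32 CPM in GFP libraries (SD, n = 3 each). LCN2, an iron-trapping protein of the acute phase, averaged 17.5 ± 1.41 CPM in TEADi and 2.85 ± 0.0832 CPM in GFP libraries. IL4R, a chain of the IL-4 receptor, averaged 64.4 ± 6.59 CPM in TEADi and 19.4 ± 0.306 CPM in GFP libraries. The 2 lower genes, named after their values were seen, were PIM1, a kinase gene that STAT proteins induce, and IL32, a cytokine.

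**Figure D4:**
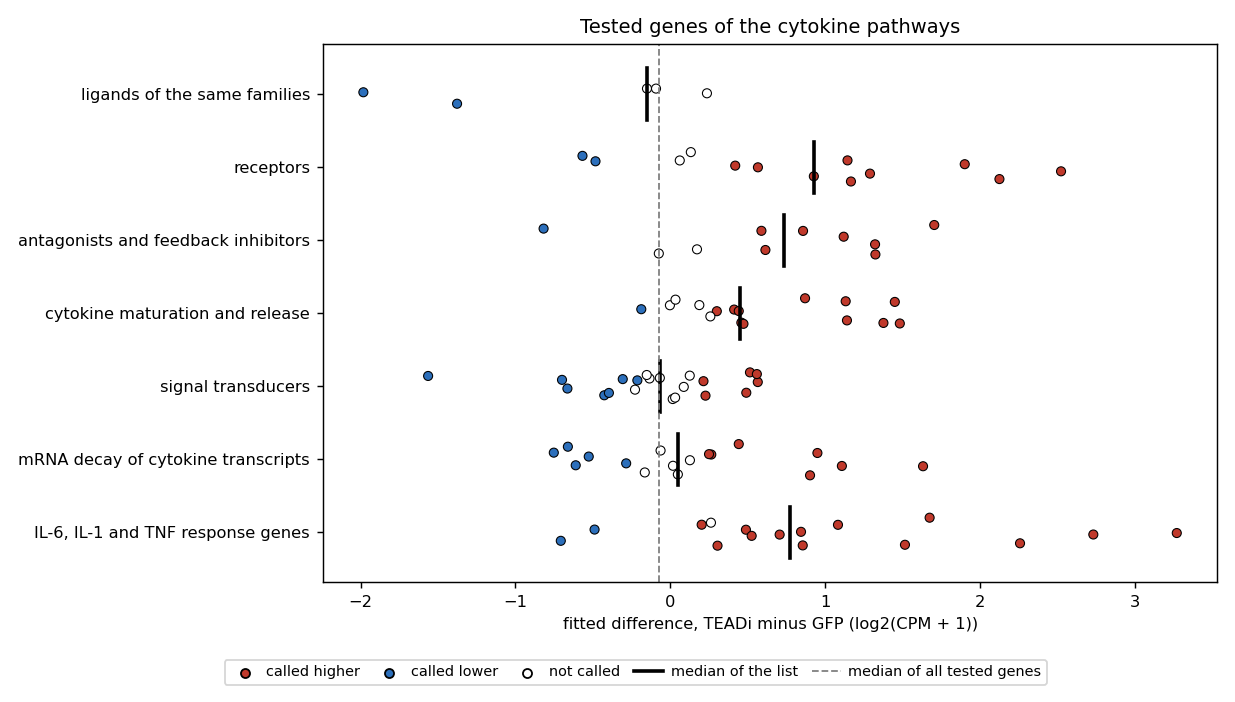
Fitted difference of each tested gene in the 7 pathway lists, TEADi minus GFP, on the log2(CPM + 1) scale. Each point is a gene, coloured by its call, the short bar is the median of the list and the dashed line the median of all tested genes at -0.07. Receptors, antagonists, maturation and response genes lie mostly right of the dashed line, and signal transducers lie on both sides of it.

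Markers of other cell types also changed in both directions, where 25.5% of all tested genes were higher and 35.3% lower. Of 12 leukocyte markers 6 were in the table and 3 were tested, all 3 higher: LAPTM5, CSF1R and CD14. CSF1R and CD14 passed the filter only through the TEADi libraries, so of the 3 LAPTM5 alone had 1 CPM in every library. The summed level of the 6 was 80.6 to 84.9 CPM in TEADi and 3.87 to 4.46 CPM in GFP libraries, nearly all LAPTM5 in the TEADi libraries. The B cell marker CD79A was at or near the smallest value in every library, and ITGAM and FCER1G were under 1 CPM in every library. PTPRC, CD3E, MS4A1, LYZ, AIF1 and TYROBP had no entry in the table, so their levels are unknown. Of 9 fibroblast markers 8 were in the table and 7 tested, 5 higher, 1 lower and 1 not called. THY1, called higher, passed the filter only through the TEADi libraries. The lower one was COL1A1, at 254 ± 19.7 CPM in TEADi and 379 ± 67.5 CPM in GFP libraries. Against GFP library C alone 4 were higher and 2 lower, as COL3A1 lost its call at a log2 difference of 0.15, against 0.31 with all libraries, and COL1A2 became lower at -0.21. The sum of the 8 was 1200 to 1268 CPM in TEADi and 542 to 706 CPM in GFP libraries. Much of it was DCN in the TEADi libraries. None of the 3 endothelial markers in the table reached 1 CPM, and their sum was at most 0.518 CPM in TEADi and 0.536 CPM in GFP libraries. The part of these markers in the cytokine results was not tested, and in bulk RNA fewer or more cells of a type and a changed level per cell cannot be told apart.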

How the data were processed

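The authors deposited 1 table of expression values for 6 libraries and 1 table of statistics for TEADi against GFP. Per the labels' protocols, poly(A) RNA libraries were made with the TruSeq mRNA kit. Per the submitters' processing notes, the build was hg19 and the tools were Partek 8.0.19.0819, STAR 2.5.1 and Trimmomatic 0.36, with no role or order stated, and the counter, annotation and use of strand are not given in the sources used here. The deposited values are CPM scaled by TMM (trimmed mean of M values), per the file headers and the values. TMM assumes that most genes do not change, so a shift of most genes at once would be scaled away. No value is 0, and 1831 to 2157 entries per library share its smallest value. In the authors' deposited statistics, the ratio, the fold change score, the p-value and the FDR step up come from a test that the table does not name, and the deposited group means are CPM.

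All 6 library columns matched a label, with 0 columns left over. The 19921 entries gave 19437 genes: for 421 symbols with several entries, values above the smallest were summed and the smallest added once, and none of the cytokine genes was among these. Library totals were 827124 to 915558 CPM, and total over smallest value, an index of depth if that value stands for 1 read, was 9589768 to 15380584. When low values were divided by the smallest, only 83.0 to 84.8% of them came within 0.1 of a whole number, so reads were not recovered and no count test was run. Depth in reads is unknown.

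Groups were compared with limma 3.58.1 in R 4.3.3 on log2(CPM + 1), with a pseudocount of 1, a variance trend, two-sided tests and Benjamini-Hochberg adjustment over 13640 genes with at least 1 CPM in 3 libraries. Log2 differences understate the change of low genes. The procedure was checked on simulated data in which few genes changed, evenly in both directions. That check does not cover a change as wide and uneven as the one called here. Members and lists were chosen with earlier results of these data known. The text names all cytokine genes, up to 4 called genes with the smallest p per list, a fixed set of receptors and antagonists, genes within 100 kb, and the 3 nearest profiles of CSF3 and IL6. Library letters are not stated to pair samples, and deviations of same-lettered libraries correlated at 0.08, -0.06 and -0.03, so libraries were not paired. Alternatives were the pseudocount, the filter, the scaling, the variance model, the merging of entries, a block for the letter, and leaving out libraries.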

Additional observations from a re-analysis of the deposited data

How the results depend on the processing

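Over 18 alternatives CSF3, IL1A, IL1B, IL11 and LIF stayed higher and IL6 and CSF1 lower, all past the threshold. CSF2 became a call with quantile normalization, at a log2 difference of -0.39 (limma, Benjamini-Hochberg adjusted p = 0.0437, within 0.0437 to 0.439 over the alternatives), so 3 cytokine genes were then lower, and the cause was not tested. The log2 difference of IL1B was 0.61 to 1.82, its ends set by the pseudocount, that of CSF3 3.42 to 4.71, that of CSF1 -0.39 to -0.22 and that of LIF 0.26 to 0.53. Over all genes 6846 to 8364 were called. Other scalings moved the median of all genes by 0.06 to 0.10 on the log2 scale: 3482 genes were called higher and 4817 lower as reported, and 4330 higher and 3962 lower with median-ratio factors. With the library letter as a replicate block, a paired fit, 8232 genes were called, with 5 cytokine genes higher and 2 lower, and no call on a cytokine gene changed. Depth limits TNF, CSF2 and TSLP, and IL1B in the GFP libraries.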
